A study of Mus musculus with 7 samples.

Results

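The loci of 8 genes of the senescence and p53 barrier to reprogramming were followed through the reprogramming of mouse embryonic fibroblasts (MEFs) by their called ATAC-seq peaks. The genes are Cdkn2a, Cdkn2b, Cdkn1a, Cdkn1b, Cdkn1c, Trp53, Mdm2 and Rb1, a set named by symbol, among 21938 protein-coding genes of the GENCODE M21 annotation of mm10. A peak counted for a gene when it overlapped the gene body widened by 20 kb on each side, and the peaks that the neighbours Cdkn2a and Cdkn2b share were counted once. The 7 libraries together held 50 merged regions at these loci, of 104346 merged regions in the genome.

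ATAC-seq marks accessible DNA by letting Tn5 transposase cut nuclei and sequencing the released fragments. The MEFs carried an OKSM cassette (Oct4, Klf4, Sox2 and Myc under a tetO promoter) inserted at Col1a1 and the transactivator rtTA*M2 inserted at ROSA26, which drives the cassette when doxycycline is present. They were collected untreated (day 0) or after exposure to doxycycline (2 µg/mL) for 1, 2, 3, 6 or 9 days. Untreated embryonic stem cells (ESCs) made up the last library. The culture protocol names the ESC line Bruce-4, whereas the genotype entered for that library is that of the MEFs, so the ESCs are 1 line that may differ from the MEFs in genotype as well as in state. All libraries of days 0 to 9 share both transgenes, and per the methods the medium was changed to ESC medium late in the course, so that day 9 differs from the earlier days in medium too. There was 1 library per time-point, and those of the doxycycline days are mixtures of cells at different stages. No difference between libraries could therefore be set against replicate error and no p-value was computed. In any of the libraries, each a pool of many cells, fewer accessible cells and lower accessibility per cell cannot be told apart.

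The barrier works through a pair of linked branches. In the first, p16Ink4a and p15Ink4b, the products of Cdkn2a and Cdkn2b, hold back the cyclin D kinases so that the retinoblastoma protein Rb1 stays bound to E2F factors and S phase genes stay silent. In the second, p19Arf, read from another first exon of Cdkn2a, restrains the ubiquitin ligase Mdm2 and so spares p53 (Trp53), which switches on Cdkn1a (p21), a direct cyclin-dependent kinase inhibitor, and Mdm2 itself. Cultured fibroblasts raise several of these genes, Cdkn2a above all, as they age, and loss of p53 or of Cdkn2a is known to ease reprogramming, whereas ESCs cycle with little Rb1 restraint.

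A region was taken as accessible in a library when the study's peak caller had called a peak there. The lists held from 27074 peaks (ESCs) to 61241 peaks (day 0), with positions but no score, so the reads behind a peak are unknown and a missing peak says only that none was called. Of 12 fibroblast markers such as Col1a1 and Thy1, 11 had a peak within 1000 bp of a transcript start on day 0, between 8 and 11 did on the doxycycline days, and 5 did in ESCs. The same count over 12 pluripotency genes was 6 (day 0) and 5 (ESCs), with Pou5f1, the gene of Oct4, counted in both and Nanog and Sall4 in no library. Promoter peaks of the pluripotency list thus did not separate the ESC library from the MEFs. Of 13 markers of epithelial, endothelial, blood, muscle and neural cells, 5 had a promoter peak on day 0 and 2 or 3 in the other libraries, and 6 had none in any library. The part of such cells in the results was not tested.

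The 8 loci held 34 peaks (day 0), 29 (day 1), 26 (day 2), 34 (day 3), 31 (day 6), 24 (day 9) and 24 (ESCs). Relative to all peaks of the library, these counts were 5.55 per 10000 peaks (day 0), 6.34 (day 1), 7.84 (day 2), 7.07 (day 3), 6.91 (day 6), 7.27 (day 9) and 8.86 (ESCs). The loci thus lost a smaller share of their peaks between day 0 and ESCs than the genome as a whole. That comparison was not matched for how many of the peaks lie at gene starts. All 8 members had a peak within 20 kb in every library. Of all protein-coding genes, 80.4% (day 0), 77.2% (day 1), 73.6% (day 2), 78.4% (day 3), 77.8% (day 6), 74.2% (day 9) and 73.0% (ESCs) did. The median member had between 3 and 3.5 peaks per library, while the median protein-coding gene had 3 (day 0), 2 on each doxycycline day and 1 (ESCs). These medians were not matched for promoter peaks, which all 8 members and 42.6% of protein-coding genes had in all 7 libraries. In ESCs the counts of Cdkn1b and Cdkn1c each take in 1 region called as 2 peaks. Rb1, the longest member at 142 kb, held the most peaks in each library, between 7 and 13. Mdm2 ranged from 7 peaks (day 3) to 1 (ESCs), while Cdkn2b kept 2 peaks throughout.

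**Figure D1:**
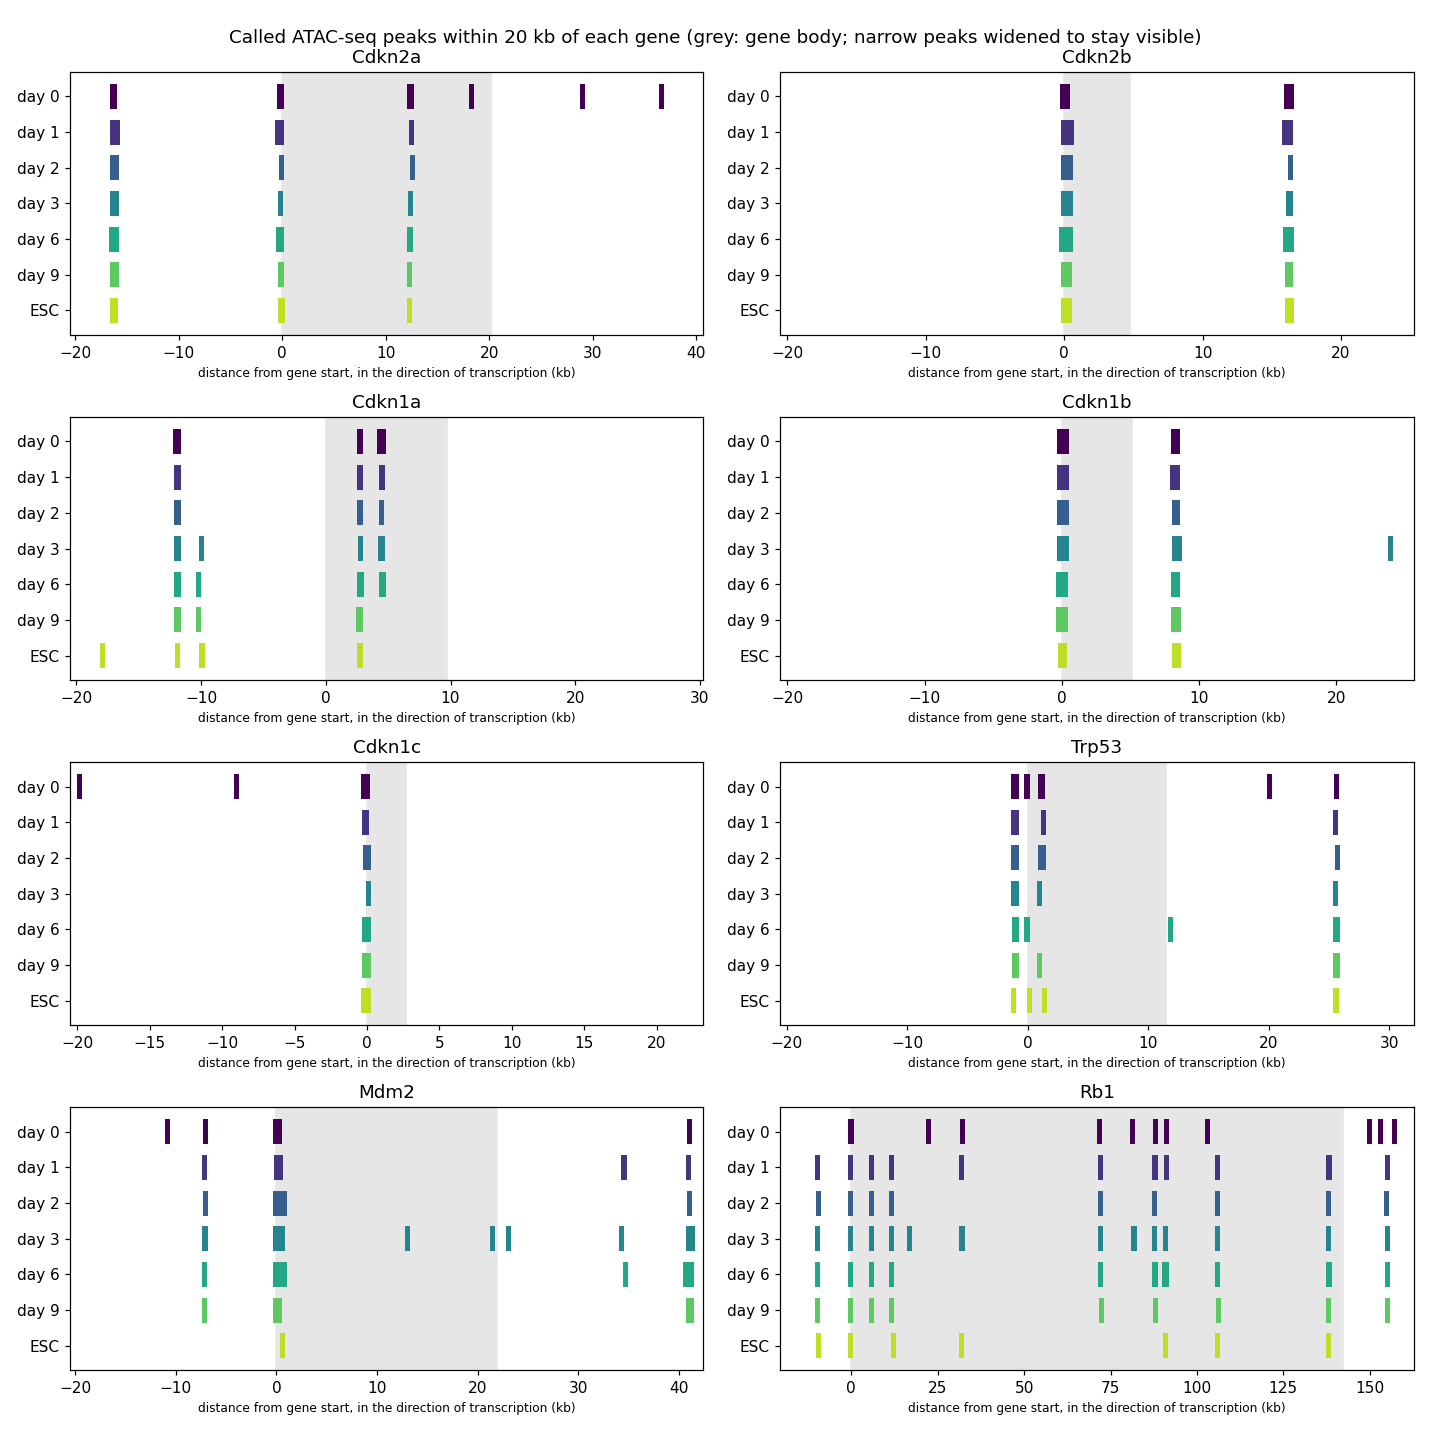
Called peaks of each of the 7 libraries (rows, coloured by time-point) within 20 kb of each member, plotted by distance from the gene start in kb in the direction of transcription, with the gene body in grey. Each member has a peak within 1000 bp of a transcript start in all 7 libraries, and Mdm2 keeps 1 peak in ESCs. Cdkn2a, Cdkn1c, Trp53, Mdm2 and Rb1 have further peaks on day 0 that no other library has.

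All 8 members had a promoter peak, within 1000 bp of a transcript start, in each of the 7 libraries. Across the genome, 42.6% of protein-coding genes had a promoter peak in all 7 libraries. Library by library, the share was 59.7% (day 0), 55.8% (day 1), 51.6% (day 2), 56.4% (day 3), 57.4% (day 6), 53.4% (day 9) and 50.3% (ESCs). The members' count stands on annotated starts of any transcript, and 9 regions at a member's start carried a peak in every library. For Trp53, 1 of those 9 also lies at the start of a neighbouring gene. When the 5′ end of the gene record alone was used, Cdkn1a dropped out, because its record begins at a start that no library covered. With starts widened by 500 bp in place of 1000 bp, the count was 7 on days 1, 2, 3 and 9, when Trp53 had no peak that close.

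At Cdkn2a (ENSMUSG00000044303.6, chr4:89274471-89294653, minus strand), the regions at both annotated starts had peaks in all 7 libraries. The region at the p16Ink4a start (chr4:89281888-89282548) held called peaks of 657 bp (day 0), 486 bp (day 1), 365 bp (day 2), 208 bp (day 3), 515 bp (day 6), 378 bp (day 9) and 277 bp (ESCs). The day 0 peak was the widest and the day 3 peak, from chr4:89282190 to 89282397, the narrowest. In ESCs the peak began at chr4:89282255, upstream of the annotated start at 89282192, whereas the day 0 peak ran across that start. The region at the p19Arf start (chr4:89294408-89295332) held 723 bp (day 0), 843 bp (day 1), 278 bp (day 2), 488 bp (day 3), 788 bp (day 6), 546 bp (day 9) and 669 bp (ESCs). Here the ESC peak was nearly as wide as the day 0 peak and the day 2 peak was the narrowest. Relative to day 0, the ESC width was 0.422 at the p16Ink4a start and 0.925 at the p19Arf start. The width of a called peak depends on signal and threshold and is given as a description, not as a measure of accessibility.

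Cdkn2a also had 3 peaks that were called on day 0 alone. They lay in an intron at chr4:89276248-89276447 (200 bp) and downstream of the gene at chr4:89265548-89265747 (200 bp) and chr4:89257740-89258263 (524 bp). Both 200 bp peaks are at the smallest width called in any library, so they sit at the edge of what the peak calls list. The 524 bp region held 2 matches to the AP-1 motif TGANTCA in its central 300 bp, and the others held none. The neighbouring Cdkn2b start (ENSMUSG00000073802.5, region chr4:89310363-89311389) carried 673 bp (day 0), 925 bp (day 1), 877 bp (day 2), 864 bp (day 3), 991 bp (day 6), 848 bp (day 9) and 765 bp (ESCs). It was wider in each of the other 6 libraries than on day 0, whereas the p16Ink4a start was narrower in each of them.

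Cdkn1a (ENSMUSG00000023067.14, chr17:29090976-29100727, plus strand) was covered at its inner starts (29093769 and 29093781) in 7 libraries and at its outermost starts (29090976 and 29090979) in 0. The region at the inner starts (chr17:29093417-29094001) held 523 bp (day 0), 491 bp (day 1), 479 bp (day 2), 390 bp (day 3), 552 bp (day 6), 565 bp (day 9) and 466 bp (ESCs). Its widths ran from 390 to 565 bp, with the day 3 peak the smallest. The intronic region at chr17:29095086-29095780 behaved otherwise, with 693 bp (day 0), 531 bp (day 1), 358 bp (day 2), 597 bp (day 3) and 541 bp (day 6), and no peak on day 9 or in ESCs. It was thus the one region of Cdkn1a seen from day 0 and missing at the end of the course.

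Upstream of Cdkn1a, a region centred at -9.99 kb from the gene start (negative distances are upstream) had no peak on days 0, 1 and 2. It held 233 bp (day 3), 211 bp (day 6), 215 bp (day 9) and 510 bp (ESCs). A peak was thus called somewhere in the merged region from day 3 on, with the widest in ESCs. The peaks of days 6 and 9 covered the left side of the merged region. The day 3 peak covered its right side and overlapped neither of them, so that the ESC peak alone joins the 2 sides. The peaks of days 3, 6 and 9 were each narrower than 300 bp. The nearest day 0 peak was 1267 bp away, in the region centred at -11.9 kb, at a start of Trp53cor1, the gene of the p53-responsive long noncoding RNA lincRNA-p21. That neighbouring region had a peak in all 7 libraries, from 367 bp in ESCs to 631 bp on day 0. A further peak of 322 bp near another Trp53cor1 start was called in ESCs alone. The central 300 bp of the region at -9.99 kb, plus strand of mm10, is shown, a choice made after the values were seen. This is the one distal merged region at a CDK inhibitor with peaks first called during the course and also a peak in ESCs. None of the 5 motifs searched (named with the motif counts further on) matched in it.

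Cdkn1a upstream region, chr17:29080839-29081138: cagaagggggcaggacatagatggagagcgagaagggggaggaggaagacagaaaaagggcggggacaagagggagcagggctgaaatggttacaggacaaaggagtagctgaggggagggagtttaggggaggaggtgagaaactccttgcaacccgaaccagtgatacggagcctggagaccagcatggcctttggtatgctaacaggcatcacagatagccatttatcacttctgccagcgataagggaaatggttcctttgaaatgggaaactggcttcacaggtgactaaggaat

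Motif matches to the p53 site were read around Cdkn1a, the classical p53 target. A p53 full site was taken as a pair of p53 decamers without spacer, with the core C and G of each kept, and sites with at most 1 mismatch outside the core were listed over the windows of the members. The match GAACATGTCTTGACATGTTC at chr17:29090928-29090947, just upstream of the outermost Cdkn1a start (-39 bp), lay under no peak in any library. The nearest peak edge was between 2469 bp (day 9) and 2615 bp (day 3) away. The match AGGCAAGCCCGGGCAAGGCC at chr17:29079039-29079058, inside the region at the Trp53cor1 start, lay under a peak in all 7 libraries. A peak over or beside such a match says nothing of p53 binding.

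Cdkn1b (p27, ENSMUSG00000003031.14, chr6:134920401-134925513, plus strand), which restrains cyclin E and cyclin A kinases, had the same 2 regions called in all 7 libraries. Its start region (chr6:134919981-134920934) held 829 bp (day 0), 837 bp (day 1), 857 bp (day 2), 864 bp (day 3), 897 bp (days 6 and 9) and 692 bp (ESCs). The widths on days 1 to 9 were between 1.01 and 1.08 of day 0, and that of ESCs was 0.835. A region downstream at chr6:134928311-134929160, at the start of the noncoding gene Lockd, also had peaks in every library, of 597 to 768 bp on days 0 to 9 and 493 bp in 2 peaks in ESCs. A 213 bp peak at chr6:134944249-134944461 was called on day 3 alone.

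Cdkn1c (p57, ENSMUSG00000037664.13, chr7:143458339-143461050, minus strand), an imprinted CDK inhibitor, carried a peak at its start (chr7:143460779-143461482) of 665 bp (day 0), 506 bp (day 1), 571 bp (day 2), 280 bp (day 3), 587 bp (day 6), 616 bp (day 9) and 472 bp in 2 peaks (ESCs). The summed length was smallest on day 3, as it was at the p16Ink4a and Cdkn1a starts, although day 3 had the second most peaks of all libraries. The ESC peaks of 200 and 272 bp were each narrower than the day 3 peak. Upstream, peaks of 343 bp at chr7:143469912-143470254 and of 288 bp at chr7:143480776-143481063 were called on day 0 alone. Alleles were not resolved.

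**Figure D2:**
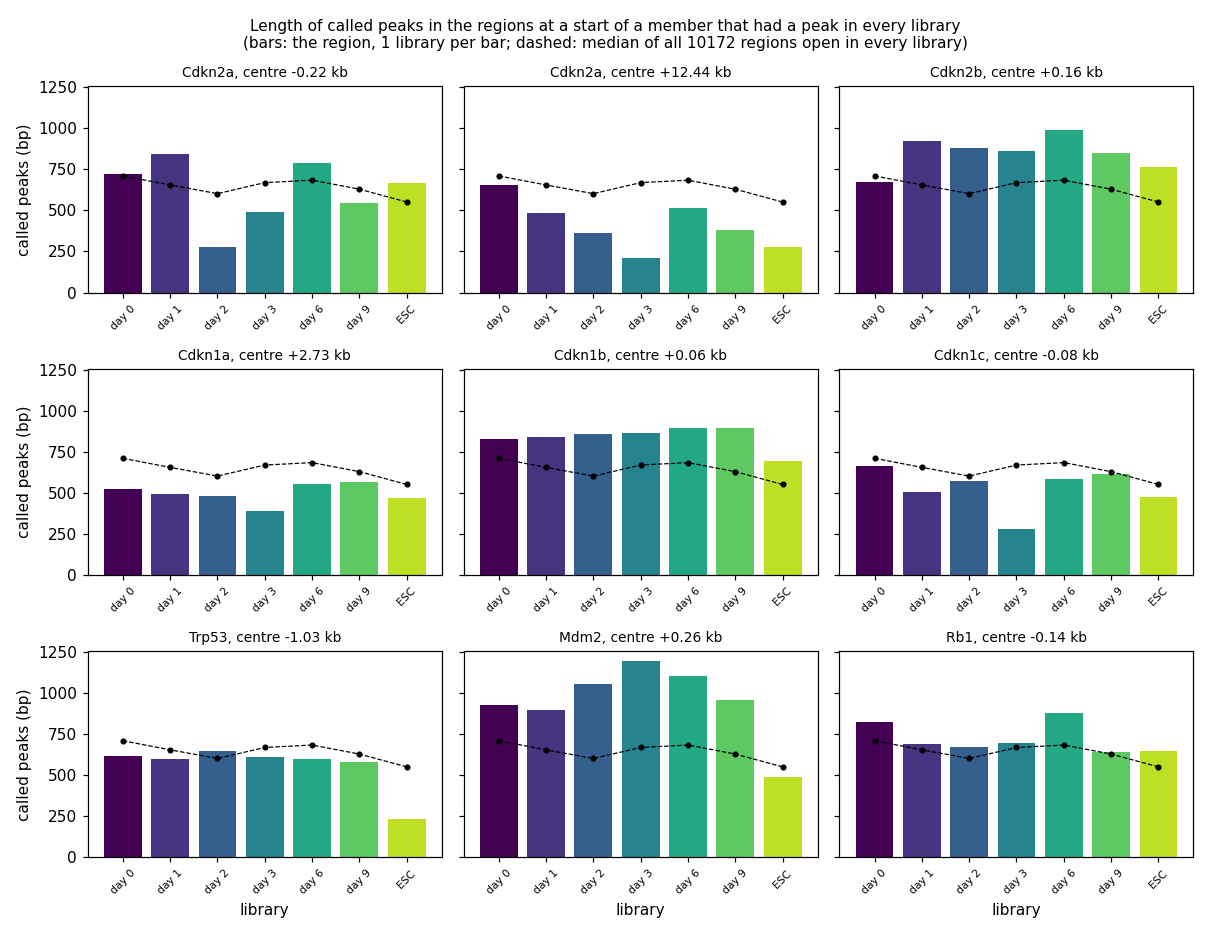
Summed length in bp of the called peaks in each of the 9 regions at a member's start that had a peak in every library (1 bar per library, title giving the distance of the region centre from the gene start), with the median of all 10172 regions open in every library as a dashed line. The Cdkn1b and Rb1 bars lie above the dashed line in every library and the Cdkn2b bars from day 1 on. The Trp53, Mdm2 and Cdkn1b bars are lowest in ESCs.

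Trp53 (ENSMUSG00000059552.13, chr11:69580359-69591873, plus strand) shares its start with Wrap53, a gene transcribed from the opposite strand that encodes a telomerase-associated protein, so peaks there cannot be assigned to either gene. The region at chr11:69579004-69579659, centred at -1.03 kb, held 616 bp (day 0), 597 bp (day 1), 645 bp (day 2), 613 bp (day 3), 601 bp (day 6), 583 bp (day 9) and 236 bp (ESCs). The MEF-derived libraries lay close together and the ESC width was 0.383 of day 0, the smallest such ratio among the 12 locus regions with a peak in every library.

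The region over the annotated Trp53 starts themselves (chr11:69580082-69580611) had a peak of 472 bp (day 0), 473 bp (day 6) and 223 bp (ESCs), and none on days 1, 2, 3 and 9. An intronic region just inside the gene (chr11:69581250-69581877) had 524 bp (day 0), 265 bp (day 1), 404 bp in 2 peaks (day 2), 208 bp (day 3), none on day 6, 200 bp (day 9) and 234 bp (ESCs). Day 6 thus had a peak at the start and none in the intron, and days 1, 2, 3 and 9 the reverse. The promoter call of Trp53 rests on the Wrap53-side region, which is the one of the trio with a peak in all 7 libraries. Farther downstream, the start of Atp1b2, a sodium pump subunit gene, had a peak in all 7 libraries, between 202 bp (day 1) and 562 bp (day 6).

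Mdm2 (ENSMUSG00000020184.15, chr10:117688875-117710758, minus strand), the ligase that marks p53 for degradation, had the largest summed peak length at its start in mid-course. The start region (chr10:117709872-117711117) held 927 bp (day 0), 896 bp (day 1), 1054 bp in 2 peaks (day 2), 1195 bp (day 3), 1103 bp in 2 peaks (day 6), 956 bp (day 9) and 487 bp (ESCs). The day 3 length was 1.29 of day 0 and the ESC length 0.525. In ESCs the peak spanned chr10:117709952-117710438, on the gene side of the region, and left the outermost Mdm2 start at 117710758 uncovered, whereas the day 0 peak (117710170-117711096) ran over it.

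No other peak was called within 20 kb of Mdm2 in ESCs. The region centred at -7.06 kb (chr10:117717533-117718106) held 540 bp (day 0), 235 bp (day 1), 515 bp (day 2), 574 bp (day 3), 200 bp (day 6) and 260 bp (day 9). The region at chr10:117669218-117670338, inside the neighbouring carboxypeptidase gene Cpm, held 409 bp (day 0), 505 bp (day 1), 441 bp (day 2), 893 bp (day 3), 1085 bp (day 6) and 811 bp (day 9). Both had a peak in every MEF-derived library and none in ESCs, the first with its narrowest peak on day 6 and the second with its widest. Peaks called on day 3 alone lay downstream (426 bp), in an exon (320 bp) and in an intron (258 bp) of Mdm2, and a region at a Cpm start had peaks on days 1, 3 and 6 of 573, 240 and 238 bp.

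The Mdm2 region at -7.06 kb was the one region without exon overlap that changed between day 0 and ESCs and held a p53 full site with at most 2 mismatches outside the core. The central 300 bp on the plus strand of mm10 are shown with the matches in capitals. In order they are a pair of overlapping p53 full site matches, 1 AP-1 match (TGANTCA) and 2 TEAD matches (GGAATG, the first on the opposite strand).

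Mdm2 upstream region, chr10:117717670-117717969: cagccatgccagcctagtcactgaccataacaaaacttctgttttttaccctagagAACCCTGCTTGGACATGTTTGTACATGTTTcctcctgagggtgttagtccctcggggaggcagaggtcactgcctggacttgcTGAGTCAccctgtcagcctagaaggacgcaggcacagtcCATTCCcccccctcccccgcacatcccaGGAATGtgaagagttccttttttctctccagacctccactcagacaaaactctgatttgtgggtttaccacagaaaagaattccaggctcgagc

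The better of the p53 matches, GGACATGTTTGTACATGTTT at chr10:117717736-117717755, lay under the peaks of days 0, 2 and 3. On days 1, 6 and 9 the narrower peaks ended 31, 61 and 69 bp from it. In ESCs the nearest peak was 7297 bp away. The other p53 matches with at most 1 mismatch at the loci, 2 at Mdm2 and 1 inside Cdkn2b, lay under no peak in any library.

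Rb1 (ENSMUSG00000022105.6, chr14:73183673-73325822, minus strand) had 19 of the 50 regions. Its start (chr14:73325495-73326426), the most GC-rich of all 50 at 81.0% of the central 300 bp, held 823 bp (day 0), 693 bp (day 1), 673 bp (day 2), 699 bp (day 3), 881 bp (day 6), 640 bp (day 9) and 647 bp (ESCs). Of the 19 regions, 11 had a day 0 peak, the start among them, and 8 did not.

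Among the 8 regions absent on day 0, 4 had a peak in every other library, counted over merged regions. The region centred at -9.75 kb (chr14:73335066-73336075) held no peak on day 0, then 709 bp (day 1), 631 bp (day 2), 899 bp (day 3), 888 bp (day 6), 633 bp (day 9) and 253 bp (ESCs). The intronic region at 11.9 kb (chr14:73313299-73314547) held 723 bp (day 1), 586 bp (day 2), 902 bp (day 3), 699 bp (day 6), 408 bp (day 9) and 373 bp (ESCs). In both, the peak was widest on day 3 and narrowest in ESCs. At 11.9 kb, however, the ESC peak (73313299-73313671) lay to 1 side and overlapped the day 3 peak (73313619-73314520) alone. The peaks of the other doxycycline days began at 73313793 (day 1), 73313885 (day 2), 73313849 (day 6) and 73313923 (day 9), beyond its end. This region thus counts among the 4 because the day 3 peak joins the ESC peak to the rest.

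The intronic region at 106 kb (chr14:73219504-73220235) held 276 bp (day 1), 500 bp (day 2), 680 bp (day 3), 344 bp (day 6), 241 bp (day 9) and 350 bp (ESCs). The region at 138 kb (chr14:73187248-73188048), which lies in an Rb1 intron and at the start of the annotated gene Gm17233, held 533 bp in 2 peaks (day 1), 601 bp (day 2), 591 bp (day 3), 526 bp in 2 peaks (day 6), 496 bp (day 9) and 772 bp (ESCs). This last was the one of the 4 whose widest peak was in ESCs. The nearest day 0 peak was 8735 bp from the region at -9.75 kb, 9763 bp from that at 11.9 kb, 2301 bp from that at 106 kb and 11200 bp from that at 138 kb. In these regions, the one at 11.9 kb aside, the peaks of any 2 libraries overlapped.

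The pattern of a peak in every library but day 0 was noticed after the values were seen, and it held for 0.755% of all merged regions, which were joined in the same way. The 4 such regions of the 8 loci were all at Rb1. The day 0 list is the longest of the 7. Of protein-coding genes, 3.63% had at least 1 such region within 20 kb, 0.169% at least 2 and 0.0137% at least 3. At least 4 were found at 2 genes (0.00912%), Rb1 and Fgfr2, the latter by an annotated record of 2961 kb. Among the 1582 genes as long as Rb1 or longer, these 2 were 0.126%. The count of 4 at Rb1 takes in the region at 11.9 kb, where the day 3 peak alone joins the ESC peak to the rest. Tcf12 had 3 such regions. The central 300 bp of the region at -9.75 kb (plus strand of mm10) are shown because it lies closest to the Rb1 start, a choice made after the values were seen. Capitals mark a pair of octamer core matches (ATGCAAA, here on the opposite strand). Only 1 of the 4 regions, this one, held an octamer core in its central 300 bp, against 18.7% of all merged regions of the pattern.

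Rb1 upstream region, chr14:73335421-73335720: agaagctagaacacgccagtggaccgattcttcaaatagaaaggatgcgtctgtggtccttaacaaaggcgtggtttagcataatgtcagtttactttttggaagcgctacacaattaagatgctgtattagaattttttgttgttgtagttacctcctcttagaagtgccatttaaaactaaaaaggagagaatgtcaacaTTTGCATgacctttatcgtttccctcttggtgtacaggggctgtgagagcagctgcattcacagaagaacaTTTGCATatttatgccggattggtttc

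A further pair of Rb1 regions had a peak on each doxycycline day and neither on day 0 nor in ESCs. The intronic region at 5.83 kb (chr14:73319731-73320247) held 426 bp (day 1), 427 bp (day 2), 446 bp (day 3), 425 bp (day 6) and 222 bp (day 9). The region at 155 kb (chr14:73170382-73171198), inside the neighbouring gene Rcbtb2, held 712 bp (day 1), 682 bp (day 2), 735 bp (day 3), 615 bp (day 6) and 271 bp (day 9). In both, the day 9 peak was the narrowest.

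In the other direction, 6 Rb1 regions had a peak on day 0 alone, and 2 had a peak from day 0 to day 9 and none in ESCs. The latter were the region at chr14:73237681-73238331, at a start of Lpar6, a lysophosphatidic acid receptor gene that lies inside an Rb1 intron, with 535 bp (day 0), 458 bp in 2 peaks (day 1), 372 bp (day 2), 590 bp (day 3), 537 bp (day 6) and 521 bp (day 9), and the region at chr14:73253342-73254004, with 200 to 490 bp. A further 2 intronic regions came and went. The region at 90.9 kb had a peak on days 0, 1, 3 and 6 and in ESCs, and the region at 32.0 kb on days 0, 1 and 3 and in ESCs. With 2 regions called on day 3 alone, this accounts for the 18 Rb1 regions outside the start.

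**Figure D3:**
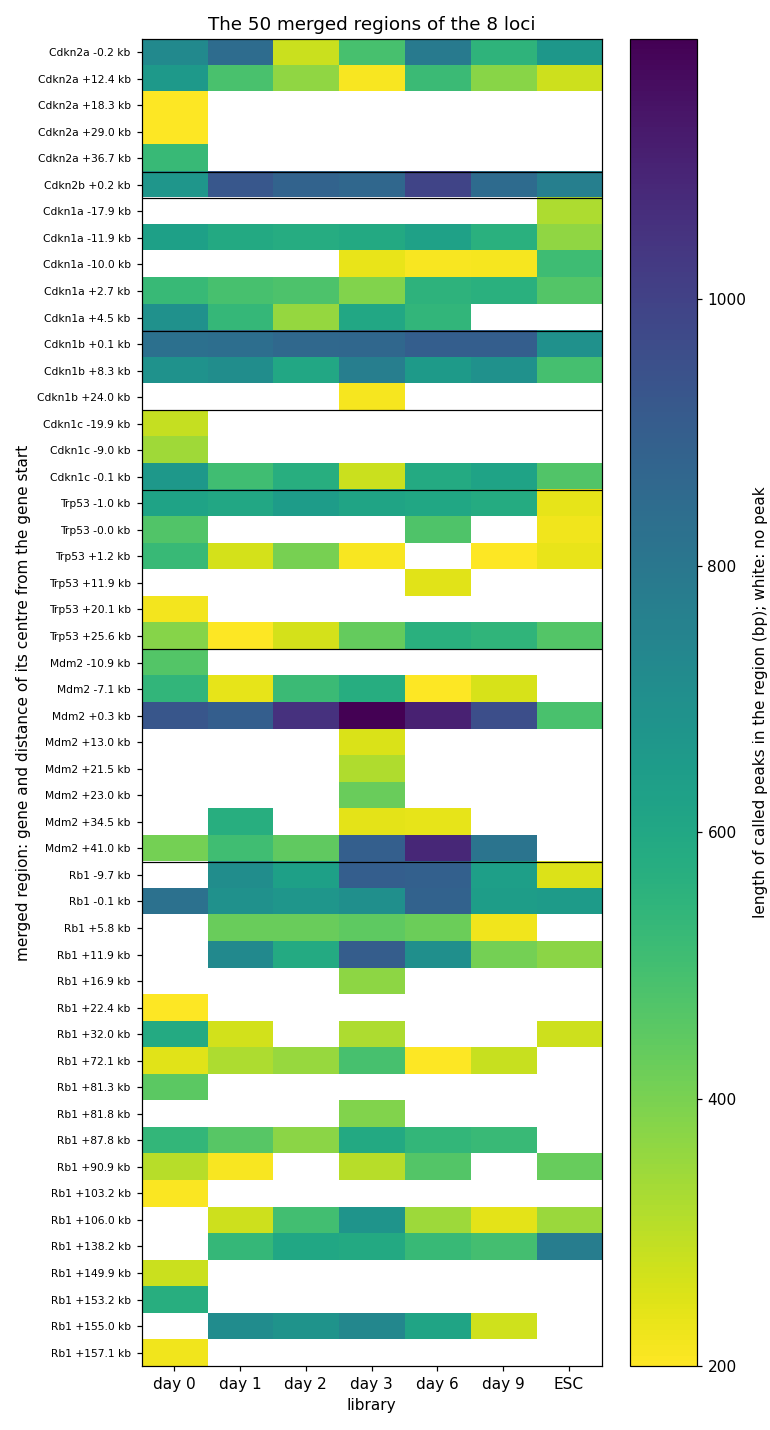
The 50 merged regions of the 8 loci (rows, named by gene and distance of the centre from the gene start) by library (columns), coloured by the summed length of called peaks in bp, with white where no peak was called. The 9 rows at gene starts that had a peak in every library are filled throughout, and 4 Rb1 rows are white on day 0 and filled in the other 6 libraries.

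Over all 8 loci, 12 of the 50 regions (24.0%, exact 95% interval 13.1 to 38.2, counting error only) had a peak in every library, against 9.75% of all merged regions and 12.6% of those within 20 kb of a protein-coding gene. A peak on day 0 and none in ESCs was seen at 18 (36.0%, 22.9 to 50.8, against 44.3% of all regions), and the reverse at 6 (interval 4.53 to 24.3%, against 12.9%). Doxycycline days alone gave 10 regions (20.0%, 10.0 to 33.7, against 30.7%), and 4 (interval 2.22 to 19.2%, against 2.32%) had peaks at both ends of the course, day 0 and ESCs, with a gap between. The interval of regions with a peak in every library lay above the genome-wide share, and the other 4 intervals took it in. With the 27074 widest peaks of each library, day 0 and ESCs had 20 and 24 locus peaks, and the split turned to 6 regions with a day 0 peak and no ESC peak against 8 of the reverse. This setting cuts the day 0 list from 61241 peaks and leaves the ESC list whole. No share over all merged regions under it stands beside these counts, so the turn is not read as a result about the loci. Neighbouring regions of 1 gene share their surroundings, so the intervals are no more than a guide.

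The split followed the position of the region. Of the 11 regions at a member's own start, 9 had a peak in every library and the other 2, both at Trp53, had gaps. Of 7 at the start of another gene alone, 3 had a peak in every library. Of the 32 regions at no annotated start, 0 had a peak in every library, 17 had a day 0 peak and no ESC peak, 4 the reverse, 9 were seen on doxycycline days alone and 2 had gaps. Among regions within 20 kb of any protein-coding gene, a peak in every library was seen at 42.1% of those at an annotated start and 2.17% of those at none. Of those at none, 48.0% had a day 0 peak and no ESC peak and 12.9% the reverse. A further 35.4% were seen on doxycycline days alone and 1.57% had gaps. Peaks at no start numbered 19 regions (day 0), 11 (day 1), 9 (day 2), 18 (day 3), 12 (day 6), 9 (day 9) and 6 (ESCs).

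Single libraries accounted for many of the distal regions. A peak on day 0 alone was seen at 13 of the 50 regions, in Cdkn2a, Cdkn1c, Trp53, Mdm2 and Rb1, against 23.9% of all merged regions. All 13 were among the 32 regions at no annotated start. Of such regions within 20 kb of any protein-coding gene, 26.6% had a peak on day 0 alone. A peak on day 3 alone was seen at 6, in Mdm2, Rb1 and Cdkn1b, against 4.80% of all. With 1 library per time-point, a region of 1 library has no second sample in which to look for it.

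**Figure D4:**
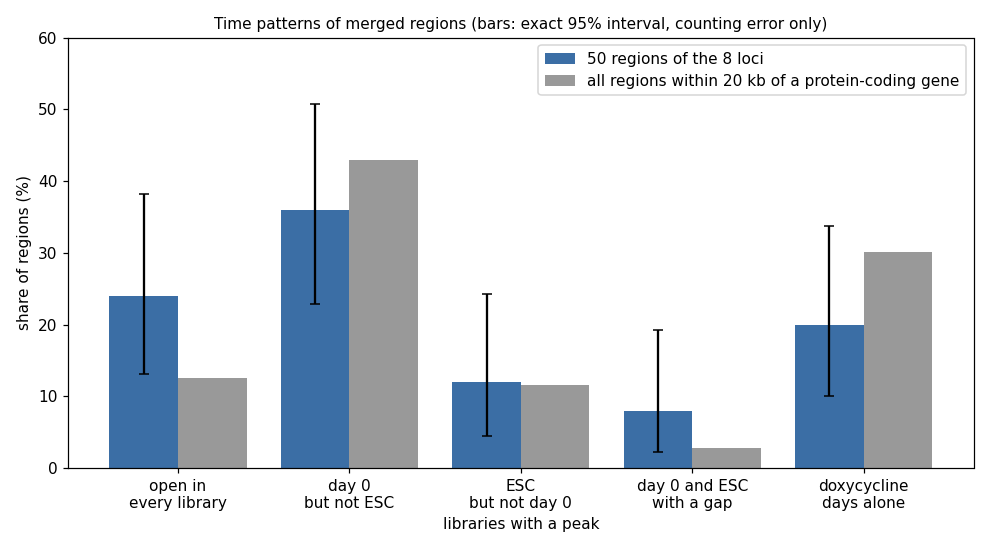
Share in percent of merged regions in each class of libraries with a peak, for the 50 regions of the 8 loci (blue, bars of the exact 95% interval) and for all regions within 20 kb of a protein-coding gene (grey). The blue bar is above the grey one for regions with a peak in every library (24.0% against 12.6%) and below it for doxycycline days alone (20.0% against 30.1%).

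Of the 34 day 0 peaks of the loci, the share that overlapped a peak of another library by at least 1 bp was 58.8% on day 1 (20 peaks, exact 95% interval 40.7 to 75.4). It was 52.9% for day 2 (18 peaks, 35.1 to 70.2), 58.8% for day 3 (20 peaks), 55.9% for day 6 (19 peaks, 37.9 to 72.8), 47.1% for day 9 (16 peaks) and 47.1% for ESCs (16 peaks, 29.8 to 64.9). Over all day 0 peaks these shares were 44.6%, 34.1%, 45.4%, 43.6%, 34.2% and 21.0%. The share of the loci exceeded that of all peaks in each library, and the intervals of day 2 and of ESCs left out the share of all peaks. The share of all peaks is not matched for position. Of the locus regions with a day 0 peak, 11 lay at a member's own start, 4 at another gene's start and 19 at none. Of those 19, 17 had no ESC peak. Whether the excess goes beyond this position was not tested. When the overlap had to cover at least 50% of both peaks, the ESC share was 23.5% (8 peaks, 10.7 to 41.2) against 14.0% of all day 0 peaks, which the interval took in. Conversely, 18 of the 24 ESC locus peaks had a counterpart on day 0 (75.0%, 53.3 to 90.2), against 49.0% of all ESC peaks, and with the 50% overlap 8 did (33.3%, 15.6 to 55.3, against 31.7%). On the doxycycline days between 18 and 20 of them had one, against 50.5% (day 1), 46.6% (day 2), 53.5% (day 3), 54.2% (day 6) and 50.1% (day 9) of all ESC peaks. With the 50% overlap the doxycycline-day shares ran from 37.5% to 50.0%, against 32.6% to 36.0% of all ESC peaks. Each of these intervals took in the share of all ESC peaks.

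The 12 regions with a peak in every library were compared in width with all such regions, called constant here. Their median ratio to day 0 was 0.953 (day 1), 0.892 (day 2), 0.967 (day 3), 1.06 (day 6), 0.976 (day 9) and 0.751 (ESCs). The ratios of all 10172 constant regions were 0.927, 0.849, 0.951, 0.968, 0.893 and 0.767. On day 6 the median ratio was above 1 at the loci and below it over all constant regions. Of the 12, 7 were wider than on day 0, against 40.3% of all constant regions, a difference in few regions that was not tested. In ESCs 10 of the 12 were narrower than on day 0, the exceptions being Cdkn2b (ratio 1.14) and the Atp1b2 start near Trp53 (1.23), and 12.6% of all constant regions were wider. The narrower ESC peaks at the Mdm2 and Trp53 starts stand beside a genome-wide narrowing of the same sign.

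The central 300 bp of the 50 regions were searched on both strands for the p53 full site (at most 2 mismatches outside the core), AP-1 (TGANTCA), E-box (CACGTG), TEAD (GGAATG) and the octamer core (ATGCAAA). A p53 full site was found in 4 regions, against 0.502% of all merged regions on chromosomes 1 to 19, X and Y. The 4 were the Trp53cor1 start near Cdkn1a, the Mdm2 region at -7.06 kb and the Rb1 intronic regions at 90.9 kb and 87.8 kb (the Lpar6 start). An AP-1 match was found in 12 regions (22.3% of all regions), and 8 of the 12 were among the 18 with a day 0 peak and no ESC peak, a class in which 33.7% of all regions had one. TEAD matched in 11 (21.3% of all), the E-box in 5 (4.97%) and the octamer core in 5 (7.99%). Constant regions were GC-rich, with a median of 64.3% at the loci and 65.0% over all such regions. The 4 Rb1 regions absent on day 0 alone had a median of 38.3%, against 47.3% over all regions of that pattern.

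The genes around the members were then counted by promoter peaks, over 6 pathway lists. Beside the counts of genes with a promoter peak in all 7 libraries, here and in the lists that follow, stands the share of 42.6% of all protein-coding genes. Of 13 activators, brakes and partners of p53, such as Atm, Chek2, Mdm4 and Ppm1d, 11 had a promoter peak in all 7 libraries, and the other 2, the p53 relatives Trp63 and Trp73, in none. Of 22 p53 target genes, 19 had one in all 7, among them the apoptosis genes Bax and Bbc3. Fas, a death receptor gene, and Zmat3, an RNA-binding protein gene, had a promoter peak on day 0 and not in ESCs, Zmat3 also lacking one on day 9. Perp, a desmosome protein gene, had none on day 0 and one in each other library. All 3 other CDK inhibitor genes (Cdkn2c, Cdkn2d, Cdkn3) had one throughout.

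Of 22 genes of the retinoblastoma and E2F branch, 22 had a promoter peak on day 0 and 18 had one in ESCs, with 17 in all 7 libraries. The 4 without one in ESCs were the D-type cyclin genes Ccnd1 and Ccnd2 and the repressive factors E2f4 and E2f6. Ccnd1 had one on days 0, 1 and 3 only, and the other 3 in each MEF-derived library. Among all protein-coding genes with a day 0 promoter peak, 20.2% lacked one in ESCs, and 5.40% of those with an ESC promoter peak lacked one on day 0. Of 10 Polycomb regulators of the Cdkn2a locus, 8 had a promoter peak in all 7 libraries, and Kdm6b, an H3K27 demethylase gene, had none in any.

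Genes for factors that senescent cells secrete made up the last list. Of 26, 17 had a promoter peak on day 0, 15 (day 1), 11 (day 2), 14 (day 3), 14 (day 6), 12 (day 9) and 6 (ESCs), with 4 in all 7. The loss between day 0 and ESCs covered 11 genes of the 17, beside 20.2% of all genes with a day 0 promoter peak, including the growth factor gene Areg and the chemokine genes Ccl2, Ccl7, Ccl8 and Cxcl12, and 0 were gained. The fibroblast marker list went, over the same libraries, from 11 of 12 (day 0) to 5 (ESCs). Whether the secreted genes move apart from that fibroblast list was not tested.

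**Figure D5:**
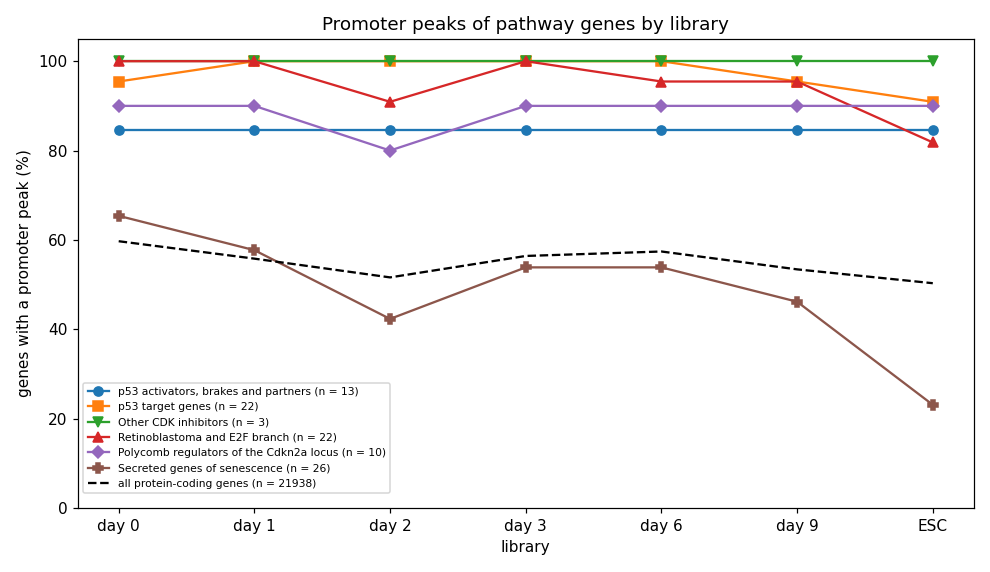
Share in percent of the genes of each list with a promoter peak (within 1000 bp of a transcript start) in each library, with all 21938 protein-coding genes as a dashed line. The secreted genes of senescence go from 17 of 26 (day 0) to 6 (ESCs), while the p53 and CDK inhibitor lists stay nearly level.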

How the data were processed

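Chromatin accessibility was measured by ATAC-seq in 7 libraries, 1 per time-point. Per the methods and the submitters' processing notes, the authors trimmed reads to 50 bp (Trimmomatic), aligned them to mm10 (Bowtie2), discarded duplicates and reduced all libraries to 1 common depth (Picard), whose value is not given in the sources used here. Peaks were called by the authors in each library alone with MACS2, keeping those with a q-value under 0.05. The deposited lists give positions only, in 3 columns, without score or count. Regions near that threshold can be called in 1 library and missed in another.

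Overlaps of at least 1 bp were counted, and touching or overlapping peaks of all libraries were merged into regions. The code gave the same counts as BEDTools 2.31.1 and was tested on simulated data. Python 3.11.15, numpy 2.4.6, scipy 1.17.1, matplotlib 3.10.9 and GENCODE M21 were used, with sequence from the RefSeq copy of GRCm38 (mm10), in which 0 merged regions ran past a chromosome end. Positions count from 1. Intervals are exact (Clopper-Pearson, 95%) and cover counting error only. Besides the 8 members, genes named are those of the lists whose promoter peak was present on day 0 and missing in ESCs or the reverse, up to 5 in alphabetical order, and other list genes are examples. The members and lists were chosen with earlier results of these data known. The alternatives were other windows, promoter distances, overlaps, merging distances, peak widths, equal numbers of peaks and the 5 libraries the study shows. The tally of Rb1 regions absent on day 0 alone was added after seeing the data. Signal tracks, ChIP-seq and RNA-seq were not analysed here.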

Additional observations from a re-analysis of the deposited data

How the results depend on the processing

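No paired analysis was possible because 1 library stands for each time-point, and leaving one out empties its group. Read depth is unknown, so a region without a peak is one where none was called, and regions of a single library have no second sample. The promoter count of the members stayed between 6 and 8 under each alternative run, the lowest in ESCs with peaks of at least 300 bp.

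The window size moved the counts by its own construction. With 50 kb the loci held 53 peaks on day 0, 44 on day 1, 51 on day 6 and 38 on day 9 (8.65, 9.63, 11.4 and 11.5 per 10000 peaks) and 88 merged regions, of which 33 had a day 0 peak and no ESC peak, 11 the reverse and 24 doxycycline days alone. With 5 kb they held 21 peaks on day 0 (3.43 per 10000) and 31 regions, 7 with a day 0 peak and no ESC peak and 3 the reverse, and the share of day 0 peaks found again was 76.2% for days 1 and 3 and 66.7% for ESCs. Keeping peaks of at least 300 bp gave 19 peaks on day 1, 14 in ESCs, 6 regions with a peak in every library, 1 Rb1 region absent on day 0 alone, 2 secreted genes with an ESC promoter peak, and 50.0% of ESC peaks found on day 1. Keeping the 27074 widest peaks of each library gave 20 peaks on day 0 and 24 in ESCs, 19 on day 1, 6 regions with a day 0 peak and no ESC peak against 8 of the reverse, so that the order of these classes turned, 2 Rb1 regions absent on day 0 alone, 65.0% of day 0 peaks found on day 9 and 70.0% in ESCs, and 58.3% of ESC peaks found on day 1. So the tally of 4 Rb1 regions rests on peaks below these widths. The 1 Rb1 region left with peaks of at least 300 bp was that at 11.9 kb, which the day 3 peak joins to the ESC peak. The values with the widest peaks stand without a share over the genome under that setting. The turned order of classes is therefore not read as a result about the loci.

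Asking for an overlap of 50% of both peaks left 23.5% of day 0 peaks found in ESCs (14.0% of all day 0 peaks), and 33.3%, 41.7%, 37.5%, 50.0%, 41.7% and 37.5% of ESC peaks found on days 0, 1, 2, 3, 6 and 9. Over all ESC peaks the shares with that overlap were 31.7%, 34.4%, 32.6%, 36.0%, 36.0% and 34.9%, and each interval took its share in. Without starts of other protein-coding genes 2 regions had a gap. Searching whole regions gave 17 with TEAD and 8 with octamer matches. Causes other than such construction were not tested.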
